A study of Caenorhabditis elegans with 6 samples.

Results

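Striated muscle contracts as myosin thick filaments pull on actin thin filaments inside repeating units, the sarcomeres. In the obliquely striated body wall muscle of Caenorhabditis elegans, thin filaments are anchored at dense bodies, the counterpart of vertebrate Z-discs, and thick filaments at M lines. Both anchor through integrin to the matrix beneath the muscle, which passes force through the hypodermis to the cuticle. The pharynx, the feeding pump, is a separate muscle with myosin and troponin paralogs of its own.

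The genes described here encode parts of this machinery and proteins annotated to it. They are the rows of the deposited gene table whose gene ontology text contains "striated muscle dense body", "M band", "A band", "I band" or "myosin", or whose name starts with tni-, tnt- or myo-. Of 59 such rows, 9 that also carry a kinase, phosphatase, ion channel or transcription factor term were left out, which leaves 50 genes of 5792. The rule uses annotation and names alone, within a table that its authors had selected on expression. The dense body term was held by 29 of the 50, a text with "myosin" by 18, the M band term by 10, the A band term by 2 and the I band term by 1, and tnt-3 and tnt-4 entered by name alone. The match on letters is broad. Words such as tropomyosin and actomyosin matched tni-1, which its name also admits, and brought in unc-94, unc-78, aipl-1 and ham-1. The myosin complex term brought in the dynein light chain gene dlc-1. Troponin I, from tni-1, and tropomodulin, from unc-94, are sarcomere proteins, but the set also holds genes known for work outside muscle, among them mlc-4, spe-15, ham-1 and dlc-1. The label of a muscle set covers most but not all of the 50.

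RNA with poly(A) tails was measured in whole worms at L4, the last larval stage, all raised on OP50 bacteria at 20 °C. One group, WT, has the strain name SJ4100 and 3 samples. SJ4100 is known to carry GFP under the promoter of hsp-6, a mitochondrial chaperone gene. The other, TGQ, also has 3 samples. The labels use TGQ as its strain name and do not give its genotype, whether it carries the same reporter, or whether the samples of a group were grown apart. The p-values below thus rest on the spread among these 6 samples, which may be technical. In a project on inherited elevation of mitochondrial DNA, the comparison asks how expression differs between the strains.

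The table gives for each gene and sample an expression signal whose unit is not named, so levels are compared here between samples and not between genes, and depth is unknown. Its rows had been selected by the authors for a difference between the same samples, since no adjusted p-value above 0.0499 stands in the authors' deposited table. A difference between groups was therefore built into every row, and what remains to describe is its direction, its size and how the genes differ among themselves. Log2 changes are from limma on log2(value + 1), and a gene was called at a Benjamini-Hochberg adjusted p under 0.05 over the 5540 genes that passed a filter on low values. Between samples, log2 values correlated at 0.987 to 0.995 within WT and 0.989 to 0.993 within TGQ. Each value belongs to a whole worm, in which fewer cells of a type and less RNA per cell cannot be told apart.

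Most of the 50 genes were higher in TGQ. All 50 passed the filter, 40 were called higher, 7 lower, and 3 were not called. Among all genes tested, 90.2% were called, 45.6% as higher and 44.6% as lower, against 80% and 14% of the 50 genes. For 49 of the 50 the WT and TGQ values were separate (98%), against 91.2% of all genes tested, and the exception was aipl-1. The median log2 change was 0.49 (quartiles 0.37 and 0.62) beside -0.22 (quartiles -0.66 and 0.60) over all genes tested. Changes were moderate: 4 of the 50 (8%) changed by at least 2-fold on the fitted scale, against 19.7% of all genes tested. The authors' deposited table also has 40 of the 50 higher and 10 lower, against 46.5% of all its genes higher. A setting called here the authors' scaling lowers TGQ by 0.131 on the log2 scale. It was inferred, not stated by the authors. The shift is the median gap, over 3716 genes, between their log2 change and the log2 ratio of the group means. With it, 34 of the 50 were called higher and 10 lower.

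**Figure D1:**
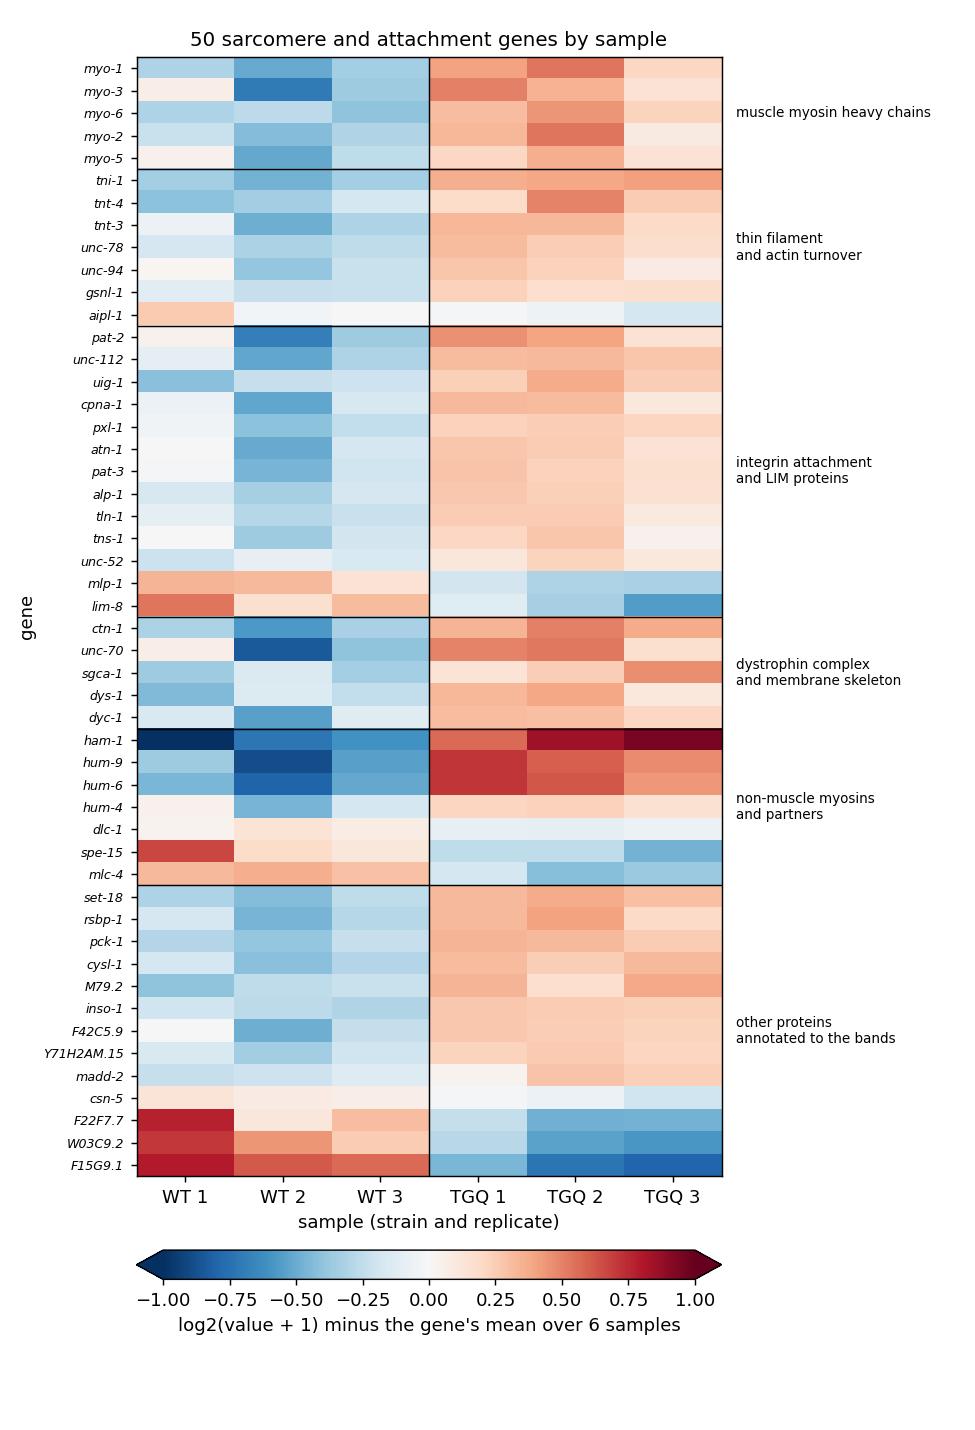
Each row is a gene and each column a sample; colour is log2(value + 1) minus the mean of that gene over the 6 samples, with the scale cut at 1 either way. Most rows are red in TGQ and blue in WT, WT replicate 2 is the bluest WT column, and the rows with the opposite pattern include mlp-1, lim-8, mlc-4, spe-15 and F15G9.1.

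Muscle myosin heavy chains, the motors of the thick filament, were all higher. The 5 genes had log2 changes from 0.48 to 0.77. For myo-3, which encodes a body wall muscle heavy chain found at the middle of the filament (chromosome V, 12226817 to 12234343 in the WBcel235 build, as are the positions below), the value was 77.8, 45.3 and 58.03 in WT replicates 1 to 3 and 105.9, 94.8 and 82.4 in TGQ. All TGQ samples lay above all WT samples, but WT replicate 1 came close to the lowest TGQ sample. The change was 0.66 (SE 0.18, adjusted p = 0.00766, limma), with means of 60.4 ± 16.4 (SD, n = 3) and 94.4 ± 11.7.

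The pharyngeal heavy chain genes moved by similar amounts with less spread in WT. For myo-1 (chromosome I, 7258946 to 7267057) the value was 29.1, 25.2 and 28.4 in WT and 48.2, 52.96 and 41.8 in TGQ. The groups lay well apart, and the change was 0.77 (SE 0.12, adjusted p = 0.000559, limma). For myo-2 (chromosome X, 12468061 to 12475348) it was 34.03, 29.2 and 32.02 in WT and 50.4, 58.1 and 42.3 in TGQ. TGQ replicate 2 was the highest and replicate 3 the lowest of its group for both genes, and the change of myo-2 was 0.64 (SE 0.14, adjusted p = 0.00225, limma).

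A ratio of 2 genes within a sample is not altered by a single factor per sample, though quantile normalization can alter it. The ratio of myo-3 to myo-2 was 2.29, 1.55 and 1.81 in WT and 2.1, 1.63 and 1.95 in TGQ. These ranges overlap, with means of 1.88 ± 0.374 (SD, n = 3) and 1.89 ± 0.24. The ratio of myo-1 to myo-2 was 0.854 to 0.887 in WT and 0.911 to 0.989 in TGQ, without overlap. The pairs used for such ratios were chosen after the values were seen, so no test is given.

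The last 2 heavy chain genes were also called higher. For myo-6 the mean rose from 5.88 ± 0.344 (SD, n = 3) to 9.79 ± 0.829, a change of 0.65 (adjusted p = 0.00139, limma). For myo-5 it was 6.94, 4.4 and 5.47 in WT and 7.92, 8.94 and 7.54 in TGQ. WT replicate 1 came near TGQ replicate 3, and the call of myo-5 (0.48, SE 0.16, adjusted p = 0.0181, limma) was lost with the authors' scaling (adjusted p = 0.0505), without WT replicate 2 (0.0601) and without TGQ replicate 2 (0.0683).

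Genes outside the 50 that build the thick filament had the same direction. From a list of 13 thick filament genes, 8 were in the table and all 8 were called higher. Their longest annotated transcripts had a median of 6396 bases, and 92.7% of all genes tested with 5000 bases or more were called higher. The part of length was not tested. The 4 not among the 50 were the myosin chaperone gene unc-45, with a change of 0.62, and 3 giant proteins with kinase domains: the twitchin gene unc-22 with 0.99, the titin-like ttn-1 with 0.93 and the obscurin-like unc-89 with 0.45. The value of unc-22 was 16.6, 6.94 and 9.12 in WT and 25.4, 23.3 and 16.3 in TGQ, so WT replicate 1 reached into the TGQ range. The 9 genes that matched a muscle term but were left out numbered 7 called higher, the Aurora B kinase gene air-2 called lower (-0.59) and exl-1 not called (-0.24, adjusted p = 0.0531, limma). The other 5 listed thick filament genes, which include the main body wall heavy chain gene unc-54 and the paramyosin gene unc-15, are not analysed here.

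**Figure D2:**
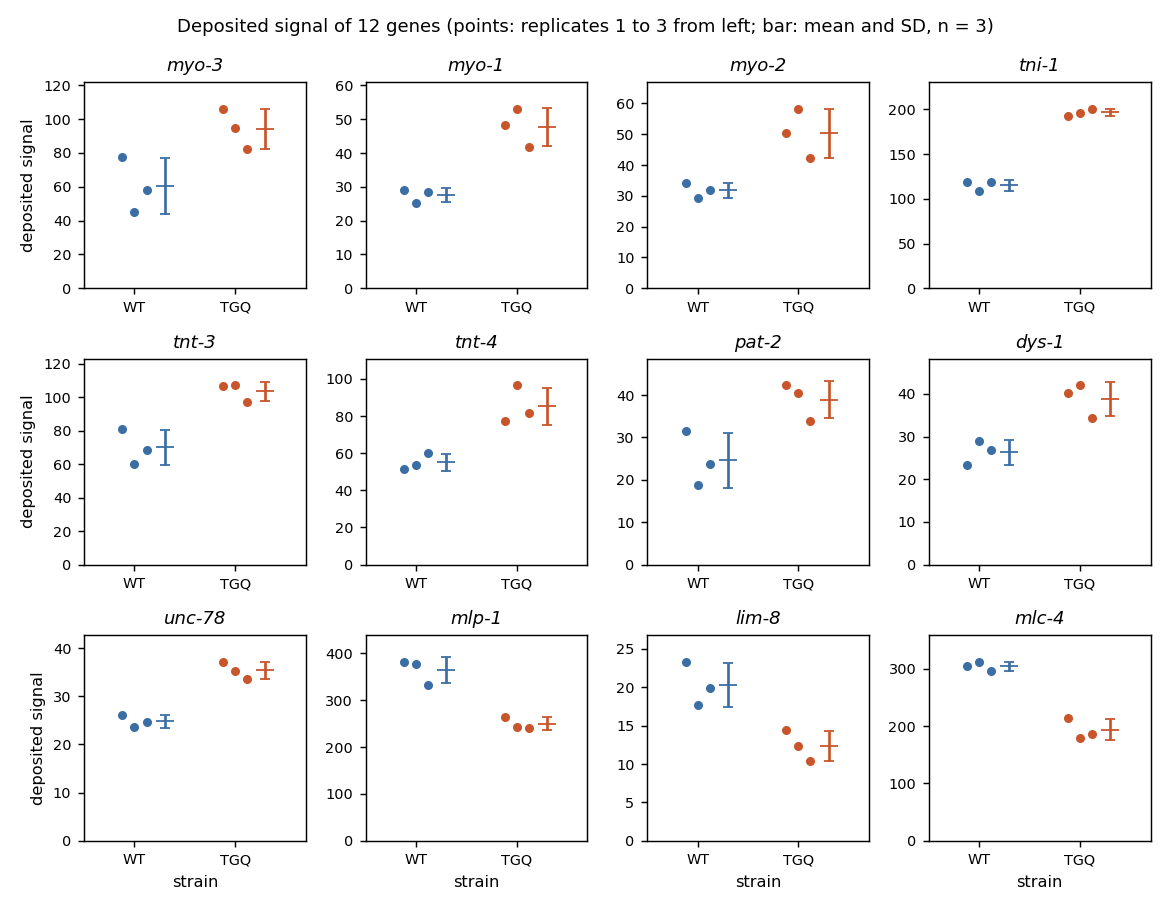
Deposited signal (vertical axis, from 0) of 12 genes in each WT and TGQ replicate, with the mean and SD (n = 3) beside the points. In all panels the groups are separate; mlp-1, lim-8 and mlc-4 lie lower in TGQ and the other 9 genes higher, and in myo-3 and pat-2 the WT replicates are widely spread.

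Troponin genes were higher as well. Troponin sits on the thin filament and makes its sliding depend on calcium. The troponin I gene tni-1 (chromosome X, 11375887 to 11377470), whose product holds the filament off, had values of 118.5, 108.3 and 118.3 in WT and 193.2, 196.4 and 200.2 in TGQ. Replicates were tight in both groups, and the change of 0.77 (SE 0.09, adjusted p = 7.63e-05, limma) was one of the best resolved in the set. The troponin T gene of body wall muscle tnt-3 went from 81.3, 60.4 and 68.6 to 107, 107.2 and 97.3. Its change was 0.57 (SE 0.12, adjusted p = 0.00223, limma).

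The pharyngeal troponin T gene tnt-4 had 51.3, 53.5 and 60.4 in WT and 77.6, 96.5 and 81.6 in TGQ, a change of 0.62 (SE 0.12, adjusted p = 0.00123, limma). Of the listed pharyngeal paralogs 4 of 6 and of the body wall paralogs 3 of 8 were in the table, and all 7 were called higher, with medians of 0.63 and 0.66. The ratio of tnt-3 to tnt-4 ranged from 1.13 to 1.59 in WT and from 1.11 to 1.38 in TGQ, with overlap.

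Of 4 genes that control the length and turnover of actin filaments 3 were called higher, and a pair of paralogs parted. Tropomodulin, encoded by unc-94, caps the slow-growing end of the thin filament. Its value was 26, 19.4 and 21.9 in WT and 31.3, 30.2 and 27.2 in TGQ, a change of 0.39 (SE 0.13, adjusted p = 0.0197, limma). This call was lost without WT replicate 2 (adjusted p = 0.0595), WT replicate 3 (0.0572), TGQ replicate 1 (0.0636) or TGQ replicate 2 (0.0642) and with the authors' scaling (0.0779). The gelsolin-like gene gsnl-1, whose product severs and caps actin, went from 30.3 ± 1.43 (SD, n = 3) to 39.8 ± 0.987, a change of 0.38 (adjusted p = 0.00716, limma), or 0.25 with the authors' scaling.

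The product of unc-78, actin-interacting protein 1, works with cofilin to take filaments apart, and aipl-1 encodes its paralog. The value of unc-78 (chromosome X, 3408674 to 3411615) was 26.2, 23.6 and 24.6 in WT and 37.2, 35.3 and 33.5 in TGQ, a change of 0.49 (SE 0.11, adjusted p = 0.00268, limma). That of aipl-1 (chromosome V, 15134198 to 15136801) was 41, 33.4 and 34 in WT and 33.7, 32.8 and 30.04 in TGQ. The groups overlap for aipl-1, and its change of -0.16 (SE 0.12, adjusted p = 0.223, limma) was not called. The authors' scaling made it a call in the lower direction (adjusted p = 0.0443), and without WT replicate 1 the change was -0.07. Within a sample the ratio of unc-78 to aipl-1 was 0.638, 0.706 and 0.724 in WT and 1.11, 1.08 and 1.12 in TGQ. All TGQ ratios lay above all WT ratios.

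On a list of 25 thin filament genes, 6 were in the table, 5 called higher and 1 lower. The 5 called higher are all among the selected genes and were counted above. Outside the selected genes the list thus adds no gene called higher and only 1, which was lower. The one lower was the actin gene act-2, with a change of -0.57 from 934 ± 54.8 (SD, n = 3) in WT to 628 ± 40.9. It shares most of its sequence with other actin genes, and reads may be divided among them.

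**Figure D3:**
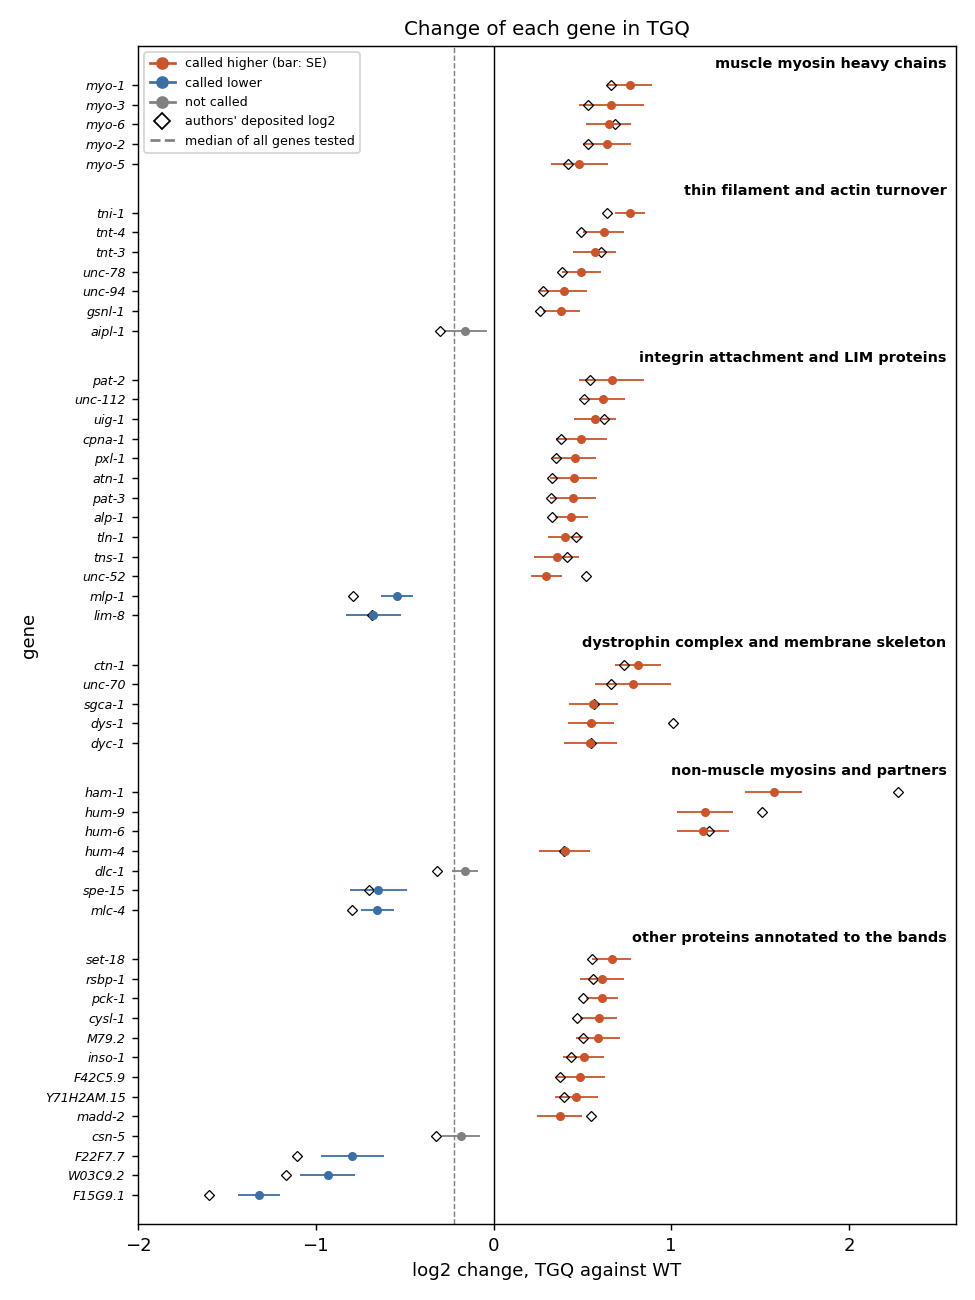
Log2 change of each gene in TGQ against WT (points, bars show the SE of limma), grouped by role, with the log2 change of the authors' deposited table as open diamonds and the median of all genes tested as a dashed line at -0.22. Most points lie between 0.3 and 0.8, ham-1, hum-9 and hum-6 lie above 1, and F15G9.1 lies at -1.32.

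Integrin and its partners, which tie dense bodies and M lines to the matrix, were mostly higher. Of 13 attachment genes 11 were called higher, with changes from 0.30 to 0.66. Among all genes tested 45.6% were called higher. The 13 genes had a median longest transcript of 3444 bases, and 84.1% of all genes tested with 3000 to under 5000 bases were called higher. The part of length was not tested. All 8 genes that carry both the dense body and the M band term were called higher, with a median of 0.45. The alpha integrin gene pat-2 (chromosome III, 8818899 to 8825266) had 31.5, 18.7 and 23.7 in WT and 42.3, 40.6 and 33.96 in TGQ. WT replicate 1 lay just under TGQ replicate 3, and the change was 0.66 (SE 0.18, adjusted p = 0.00738, limma).

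The beta integrin gene pat-3 (chromosome III, 3908931 to 3914149) had 46.3, 33.6 and 40.5 in WT and 56.95, 54.9 and 52.2 in TGQ, a change of 0.45 (SE 0.13, adjusted p = 0.00962, limma). The products of pat-2 and pat-3 form one receptor. The ratio of their signals was 0.556 to 0.681 in WT and 0.651 to 0.742 in TGQ, with overlap.

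Adaptors on the cell side followed. The kindlin gene unc-112, needed to place integrin in attachments, went from 45, 33.2 and 38.5 to 60.1, 60.4 and 58.4, a change of 0.61 (SE 0.12, adjusted p = 0.00177, limma). TGQ samples were nearly equal and WT samples spread. The exchange factor gene uig-1, whose product binds UNC-112, changed by 0.57 and the copine gene cpna-1 by 0.49. The talin gene tln-1 went from 70.6 ± 4.82 (SD, n = 3) to 93.8 ± 5.99, a change of 0.40 (adjusted p = 0.0046, limma), and the paxillin gene pxl-1 from 31.3 ± 4.22 to 43.1 ± 0.502, a change of 0.46. The tensin gene tns-1 changed by 0.36 (adjusted p = 0.024, limma), and its call was lost without WT replicate 2 (0.0708), WT replicate 3 (0.0627), TGQ replicate 1 (0.0631) or TGQ replicate 2 (0.0974) and with the authors' scaling (0.107).

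The alpha-actinin gene atn-1 and the ALP/Enigma gene alp-1 encode proteins of the dense body itself. The value of atn-1 was 72.3, 50.8 and 64.2 in WT and 87.8, 86.7 and 80.3 in TGQ, a change of 0.45 (SE 0.13, adjusted p = 0.0103, limma). That of alp-1 was 86.3, 76.4 and 85.6 in WT and 116.3, 113.8 and 107.1 in TGQ, a change of 0.44 (SE 0.09, adjusted p = 0.00243, limma).

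On the matrix side, unc-52 encodes the perlecan that integrin binds beneath the muscle. Its value was 133.9, 146.7 and 139.5 in WT and 168.1, 181.4 and 167.3 in TGQ. The groups lay apart, but the change of 0.30 (SE 0.09, adjusted p = 0.0104, limma) varied with the scaling. It was 0.56 after quantile normalization and 0.17 with the authors' scaling (adjusted p = 0.0887), and it was not called without TGQ replicate 2 (adjusted p = 0.0582) or in the latter scaling. Of 14 listed matrix genes, 8 were in the table. The longest annotated transcripts of these 8 had a median of 7750 bases, and 92.7% of all genes tested with 5000 bases or more were called higher. Besides unc-52, the laminin genes epi-1, lam-2 and lam-3 and the peroxidasin gene pxn-2 were called higher, and lam-1, him-4 and cle-1 were not called. On a list of 26 dense body and integrin genes, 12 were in the table, 11 called higher and 1, lim-8, lower. Most of the 12 are among the 50 and were counted above. The 3 outside the 50 were called higher, among them the vinculin gene deb-1, which changed by 0.52. From 13 genes that attach the hypodermis on the far side of the matrix, 9 were in the table and 8 were tested. Of the 8, with a median of 0.52, 7 were called higher, among them vab-10 with 0.77 and mua-3 with 1.39. The longest annotated transcripts of the 9 had a median of 3096 bases, and 84.1% of all genes tested with 3000 to under 5000 bases were called higher. The part of length was not tested.

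LIM domain genes went both ways. A LIM domain is a zinc-binding fold that joins proteins together, and 4 of the 50 genes have one in the deposited domain annotation. Of these alp-1 and pxl-1 rose, while the muscle LIM protein gene mlp-1 and the M line gene lim-8 fell. The value of mlp-1 (chromosome III, 5971527 to 5975055) was 382.3, 378.02 and 333.1 in WT and 265.2, 243.4 and 240.4 in TGQ, a change of -0.54 (SE 0.09, adjusted p = 0.000653, limma).

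For lim-8 (chromosome III, 6802788 to 6815963) it was 23.3, 17.7 and 19.9 in WT and 14.4, 12.3 and 10.4 in TGQ, a change of -0.68 (SE 0.15, adjusted p = 0.0031, limma). The groups did not overlap for either gene. The fall of lim-8 was called under all 12 other settings tried. That of mlp-1 was not called after quantile normalization, where its change was -0.14 (adjusted p = 0.108).

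The ratio of alp-1 to mlp-1 rose from 0.228 ± 0.0275 (SD, n = 3) to 0.451 ± 0.015, and that of alp-1 to lim-8 from 4.1 ± 0.351 to 9.21 ± 1.1, with no overlap in either. This separation was fixed by the values above, since alp-1 rose and mlp-1 and lim-8 fell without overlap. Among the 9 other LIM genes in the table, 8 were tested, of which 3 were called higher and 5 lower. LIM genes outside the 50 thus also went both ways.

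**Figure D4:**
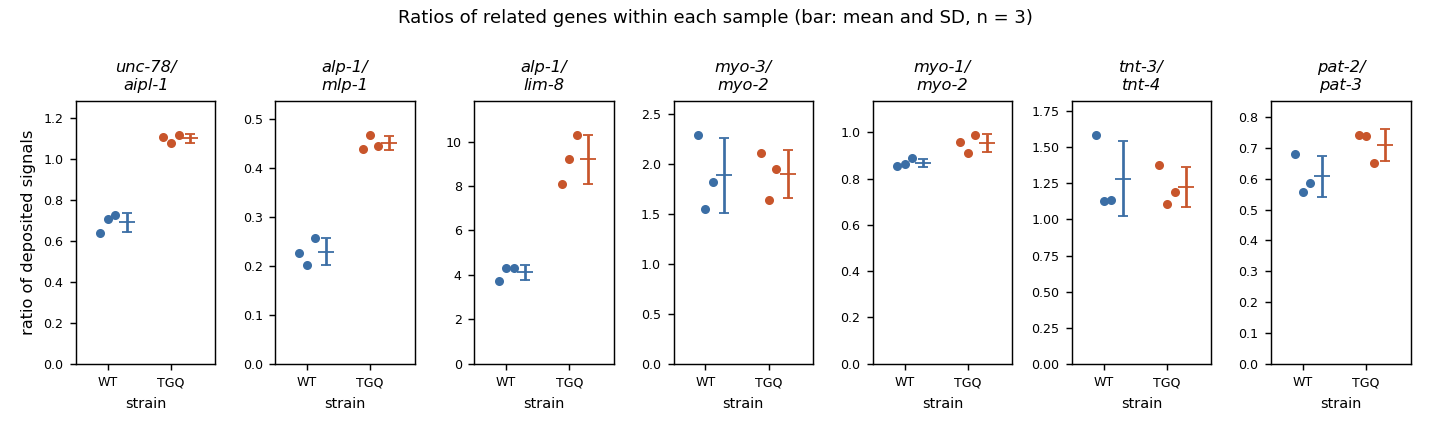
Ratio of the deposited signals of related genes within each sample, by strain, with mean and SD (n = 3). The ratios of unc-78 to aipl-1, alp-1 to mlp-1 and alp-1 to lim-8 are higher in every TGQ sample, that of myo-1 to myo-2 is slightly higher, and the other 3 overlap between strains. For alp-1 to mlp-1 and alp-1 to lim-8 the separation follows from the opposite changes without overlap of the genes themselves.

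The dystrophin complex links the muscle skeleton to the membrane, and its loss causes muscle degeneration in vertebrates and worms. All 4 genes of the 50 grouped here with this complex, and the beta-spectrin gene unc-70, were called higher. The dystrophin gene dys-1 (chromosome I, 11526918 to 11557851) had 23.2, 28.9 and 26.7 in WT and 40.3, 42 and 34.3 in TGQ, a change of 0.55 (SE 0.13, adjusted p = 0.00376, limma). The authors' deposited table has a log2 change of 1.01 for dys-1, 0.446 above the log2 ratio of the group means, whereas the same difference has a median of -0.131 over 3716 genes and was at least 0.2 in 0.727% of them. For unc-52 it was 0.222. Ensembl lists 10 transcripts for dys-1 and 17 for unc-52, and what gives these gaps was not tested.

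The alpha-catulin gene ctn-1, whose product places a potassium channel in muscle, went from 8.71, 7.13 and 8.67 to 14.3, 16.2 and 14.7, a change of 0.81 (SE 0.13, adjusted p = 0.000511, limma). The alpha-sarcoglycan gene sgca-1 changed by 0.56 and dyc-1, grouped here with the dystrophin complex, by 0.55. On a list of 7 genes of this complex, 5 were in the table and all 5 were called higher, including the syntrophin gene stn-1 with 0.49. The spectrin gene unc-70, for the lattice under the membrane, had 32.5, 16.8 and 23.1 in WT and 44.02, 45 and 34.6 in TGQ. WT replicate 1 lay far above replicate 2 and closer to TGQ replicate 3, and the change was 0.79 (SE 0.21, adjusted p = 0.00736, limma).

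Non-muscle myosins and their annotated partners went both ways, with 4 of 7 called higher, 2 lower and 1 not called. Unconventional myosins move cargo or tether membranes in many cells. Of these, hum-6 (chromosome X, 2303082 to 2314914) went from 5.27, 3.92 and 5.04 to 13.1, 12.2 and 10.6, a change of 1.18 (SE 0.15, adjusted p = 0.000131, limma). The gene hum-9 (chromosome IV, 9274479 to 9283113) went from 1.96, 1.05 and 1.61 to 5.23, 4.74 and 4.26, a change of 1.19 (SE 0.16, adjusted p = 0.000206, limma). At these low values the added 1 understates the change, which with an added 0.1 was 1.60 for hum-9 and 1.32 for hum-6. In both genes even the lowest TGQ sample lay far above the highest WT sample.

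The largest rise of the 50 was not in a myosin but in ham-1, which acts in asymmetric divisions of neuroblasts and entered through a term on the actomyosin ring. Its signal was low, with 0.53, 0.91 and 1.07 in WT and 3.66, 4.66 and 5.08 in TGQ, and the added 1 understates its change of 1.58 (2.32 with an added 0.1). The unconventional myosin gene hum-4 changed by 0.40 (adjusted p = 0.0243, limma), and its call was lost without WT replicate 2 (0.0687), WT replicate 3 (0.0549), TGQ replicate 1 (0.057) or TGQ replicate 2 (0.0731) and with the authors' scaling (0.0879).

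The light chain of non-muscle myosin, encoded by mlc-4 and used in cell division and embryonic elongation, was lower. The value of mlc-4 (chromosome III, 3392514 to 3393787) was 304.3, 312.5 and 296.6 in WT and 214.1, 180.1 and 186.9 in TGQ, a change of -0.65 (SE 0.09, adjusted p = 0.000259, limma), or -0.31 after quantile normalization. The unconventional myosin gene spe-15, needed to sort components during sperm formation, went from 39.1, 27.7 and 26.4 to 20.2, 20.2 and 17.2, a change of -0.65 (SE 0.16, adjusted p = 0.00482, limma). The dynein light chain gene dlc-1 stood at 645 ± 22.8 (SD, n = 3) and 578 ± 8.35, a change of -0.16 that was not called (adjusted p = 0.0633, limma). A call in the lower direction came with the authors' scaling (0.00562) and without WT replicate 1 (0.0264), and one in the higher direction after quantile normalization (a change of 0.35).

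Germ cell transcripts fell in the same samples. The summed value of 21 oocyte and eggshell genes was 1480 to 2025 in WT and 332 to 506 in TGQ, with all 21 called lower. That of 36 sperm genes was 10255 to 12632 in WT and 3402 to 4156 in TGQ, with 35 called lower and fog-3, which sets sperm fate, higher. The part of these germ cell transcripts in the values of mlc-4, spe-15 and the other genes was not tested.

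The remaining 13 genes are annotated to the bands but have other known or unknown roles. Of these 9 were called higher, all between 0.37 and 0.66. The gene set-18, for a SET domain protein, went from 18.6 ± 1.23 (SD, n = 3) to 30.04 ± 0.751, a change of 0.66 (adjusted p = 0.000653, limma). The value of pck-1, for the gluconeogenic enzyme phosphoenolpyruvate carboxykinase, went from 75.9 ± 4.21 to 116 ± 3.72, a change of 0.61. The genes rsbp-1, for a protein that binds regulators of G protein signalling, and cysl-1, of the cysteine synthase family, changed by 0.61 and 0.59. M79.2, inso-1, F42C5.9 and Y71H2AM.15 changed by 0.59, 0.51, 0.49 and 0.47. The change of madd-2, which guides muscle arms, was 0.37 (adjusted p = 0.0185, limma), and it was not called without TGQ replicate 2 (0.0856), without TGQ replicate 3 (0.0614) or with the authors' scaling (0.0741).

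The 3 deepest falls of the whole set were in dense body genes of unknown or metabolic role. F15G9.1 (chromosome X, 9706384 to 9708566) had 154.3, 136 and 131.7 in WT and 64.2, 52.8 and 50.6 in TGQ, a change of -1.32 (SE 0.12, adjusted p = 2.17e-05, limma). W03C9.2 (chromosome II, 11962368 to 11965258) had 16.6, 13.6 and 11.8 in WT and 7.86, 6.4 and 6.17 in TGQ, a change of -0.93 (SE 0.16, adjusted p = 0.000652, limma). F22F7.7, which the table describes as a gamma-glutamylcyclotransferase, had 9.71, 5.78 and 6.79 in WT and 4.32, 3.51 and 3.52 in TGQ, a change of -0.79 (SE 0.18, adjusted p = 0.00303, limma). The groups did not overlap for any of them. The gene csn-5, for a subunit of the COP9 signalosome and the other holder of the A band term beside myo-3, was at 33.5 ± 0.73 (SD, n = 3) and 29.4 ± 2, a change of -0.18 that was not called (adjusted p = 0.127, limma) and was called with the authors' scaling (0.0214).

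Listed genes for the excitation and regulation of muscle, apart from the 50, were higher where they were in the table. Of 22 genes for excitation and calcium handling 13 were in the table, and all 13 were called higher, with a median of 0.56. Their longest annotated transcripts had a median of 3785 bases, and 84.1% of all genes tested with 3000 to under 5000 bases were called higher. The largest changes of the 13 were in the ryanodine receptor gene unc-68 with 0.83 and tmc-1 with 0.77. The junctophilin gene jph-1 with 0.70 and the potassium channel gene twk-18 with 0.69 came next. Of 11 listed muscle regulators 3 were in the table and were called higher, the transcription factor genes tbx-2 with 0.78 and pha-4 with 0.59 and the growth factor receptor gene egl-15 with 0.96. Of other somatic markers, 5 of 20 listed neuron genes were in the table and all 5 were called higher. Of 18 listed hypodermis genes 11 were in the table, with 10 called higher. Among all genes tested 45.6% were called higher. The remaining hypodermis gene is col-19, for a collagen of the adult cuticle. It fell from 772 ± 111 (SD, n = 3) to 97.5 ± 31, a change of -3.01, the largest on its list. Of 20 listed intestine genes 5 were in the table, with 2 called higher and 3 lower. The members of these lists that are outside the table are not analysed here.

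Transcript length moved with the change across the table. Among the genes tested whose longest annotated transcript has 5000 bases or more, the median change was 0.61 and 92.7% of 191 were called higher. Among those of under 1000 bases the median was -0.62 and 20.5% of 1679 were called higher. The 50 genes are long, with a median of 2708 bases against 1370 for the table. The 10 of the 50 with 5000 bases or more had a median change of 0.59, and the 13 of 3000 to under 5000 bases one of 0.55, beside 0.55 for the 473 genes of that band. In these bands the selected genes lay close to other genes of their length. The 18 of 1000 to under 2000 bases had a median of 0.49, with 12 called higher (66.7%), against a median of -0.25 and 44% for the 2378 genes of that band. The part of length in these changes was not tested.

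**Figure D5:**
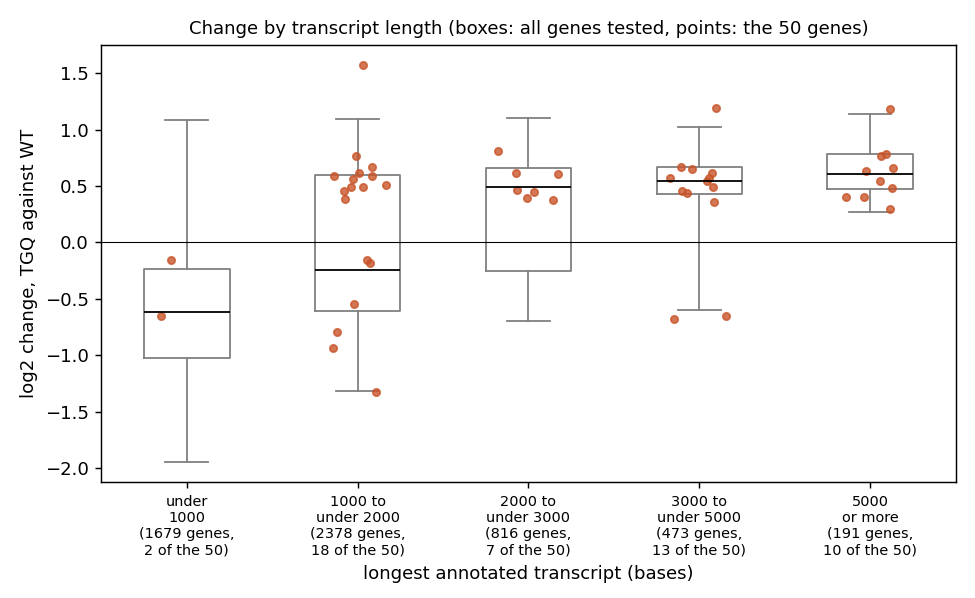
Log2 change in TGQ against WT by length of the longest annotated transcript. Boxes show the median and quartiles of all genes tested in each band, with whiskers at the 5th and 95th percentiles, and points show the 50 genes, most of which lie near the box medians from 2000 bases upward (hum-6 and hum-9 lie above, lim-8 and spe-15 below) and above the median of -0.25 in the band from 1000 to under 2000 bases.

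Chromosome also moved with the change. Of the 50 genes 12 lie on chromosome X, where 640 of 852 tested genes were called higher with a median of 0.56. The selected genes on X had a median of 0.57, with 11 called higher and 1 lower. The 38 on autosomes had a median of 0.46, with 29 called higher and 6 lower. Of 4672 tested autosomal genes, 1871 were called higher and 2292 lower, with a median of -0.30. The part of the chromosome in these changes was not tested.

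Replicates within a group were not alike for these genes. WT replicate 2 had the lowest WT value for 33 of the 50 and WT replicate 1 the highest for 36, against 56.6% and 68.5% of the genes tested. TGQ replicate 3 was lowest of its group for 37 of the 50, against 51.1%. In selected genes of at least 3000 bases the median deviation from the group mean was -0.18 in WT replicate 2 and 0.18 in WT replicate 1, and in shorter ones -0.07 and 0.07. Over all 664 tested genes of at least 3000 bases it was -0.24 and 0.24. Without WT replicate 2, 36 of the 50 were called higher and 7 lower, with a median of 0.41.

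In Ensembl 115 on WBcel235, all 50 genes are protein-coding and 20 share exonic bases with another gene. The largest shares were 18.5% of set-18, with a non-coding RNA on the other strand, and 11.3% of cpna-1, with the gene mth-2 on the other strand. Strand-specific counting is not stated, so reads from such stretches may have been given to either gene.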

How the data were processed

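Libraries were made from polyadenylated RNA with an Illumina TruSeq kit and sequenced as paired reads, per the labels' protocols. TopHat2 and RSEM are named per the submitters' processing notes, without versions or roles. Not given in the sources used here were the build, the annotation and the differential test. The deposited table gives, per gene and sample, the authors' expression signal in a unit that the header does not name. It also gives group means, the authors' fold (ratio of TGQ to WT), its log2, and the authors' p-value and adjusted p-value. Depth is unknown, so no counting interval is given.

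Samples were grouped by title, and columns were matched to them by name. In R 4.3.3, limma 3.58.1 compared the strains on log2(value + 1). Genes entered if 3 or more samples reached a value of 1, which 5540 did. The model held the strain alone, and eBayes used its trend and robust options. The script was tested on simulated data with 200 changed genes. In the deposited data 90.2% of the genes tested were called, so that test does not check the error rate here. P-values were adjusted by the Benjamini-Hochberg method over all genes entered, and a gene was called under 0.05. Gene positions and transcript lengths come from Ensembl 115 on WBcel235, where all 50 IDs matched; the authors' build may differ.

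The 50 genes and the lists were chosen with earlier results of these data known. By rule, the text names every gene of the 50 on a role list, the 10 others of largest change and each one not called; further genes were named after their values were seen. Roles were assigned by hand after the names were known. Alternatives were another pseudocount, no filter, 2 scalings, plain eBayes, a replicate block and leaving out each sample. The scalings were quantile normalization and the authors' scaling, which was inferred from their deposited log2 changes.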

Additional observations from a re-analysis of the deposited data

How the results depend on the processing

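Of the 50 genes, 40 were called in the same direction under all 12 settings tried. Genes called higher numbered 34 to 40 and genes called lower 7 to 8 when each sample was left out in turn, with medians of 0.41 to 0.54, and over all genes tested 2275 to 2522 were called higher and 2056 to 2437 lower. With the authors' scaling the median log2 change was 0.37 in place of 0.49, with 34 called higher and 10 lower, and 6 genes lost and 3 gained a call. After quantile normalization 41 were called higher and 6 lower, the median was 0.58, and dlc-1 reversed to 0.35 (adjusted p = 0.00292). The cause of these shifts was not tested. An added 0.1, no filter and plain eBayes left the call of each of the 50 as it was. The median over all genes tested was -0.22, or -0.10 after quantile normalization and -0.35 under the authors' scaling, and that of the 50 genes lay 0.66 to 0.76 above it under every setting.

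Deviations of same-numbered replicates correlated at 0.247, -0.0115 and 0.16, and those of differently numbered ones at -0.234 to 0.165. With 3 samples a group, these values cannot decide whether the numbers pair the samples. With a replicate block, 40 of the 50 were called higher and 7 lower, as without it, and 2531 genes of the table higher and 2606 lower, against 2527 and 2471. With values that are not counts, depth cannot be weighed, and only 3 samples a group limit the precision.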
